A study of Mus musculus with 6 samples.

Results

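The genes described here encode the proteins of the cytosolic ribosome. They were taken by symbol: Rpl or Rps with a number and at most 1 of the letters a, l or x, the 3 genes Rplp0, Rplp1 and Rplp2, and the 2 further symbols Rpsa and Rpl22l1. This gave 82 of the 23478 genes in the count table, 47 of the large subunit, 32 of the small subunit and the 3 of the P stalk, which belongs to the large subunit and recruits translation factors. The rule uses no measured value. In the annotation (GENCODE vM21, GRCm38) 81 of them are protein coding. Rps4l is annotated there as a transcribed processed pseudogene.

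The trachea of mouse embryos at embryonic day 13.5 was taken apart, and 6 RNA libraries were made from its sorted cells. Both populations came from embryos with the genotype Bmp4 f/f (floxed Bmp4 alleles) and gamma SMA eGFP, a green fluorescent reporter of gamma smooth muscle actin, and both are titled control. The labels name no Cre, so nothing in them says that Bmp4 was deleted in either population. Muscle (3 libraries) is the population labelled muscle in the reporter embryos, and epithelium (3 libraries) was marked with an antibody to Epcam. The series concerns Wnt signalling, ion channels, smooth muscle and cartilage of the trachea. Comparing the populations shows which genes differ between these 2 neighbouring tissues. The labels do not say which libraries came from separate embryos or pools, so p-values measure only the spread between these samples, which may be technical.

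The cytosolic ribosome reads messenger RNA and joins amino acids into protein. Its small subunit decodes the message and its large subunit forms the peptide bond, and each subunit needs close to equal amounts of its proteins. Messenger RNAs of ribosomal proteins in vertebrates typically begin with a run of pyrimidines at the start site, the TOP motif, through which their translation responds to the mTOR pathway. A few members have a close paralogue, such as Rpl3 with Rpl3l, Rpl22 with Rpl22l1, Rpl39 with Rpl39l and Rps27 with Rps27l.

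The sequences below show the start sites of 9 of these genes, where the TOP motif would lie. They are the 30 bases around the annotated start (15 on each side), read 5′ to 3′ on the strand of the gene from the RefSeq promoter table (GRCm38.p6). Capitals mark the longest run of C and T where it reaches 8 bases. The first 7 genes are shown because the comparison below turns on their levels or because their windows hold a long run. The run of Rps27l lies before the annotated start, outside the message, and that of Rpl39 begins some bases after it. The last 2, without capitals, are the member with the highest level per length and the well-expressed member with the lowest fold change.
Rps6: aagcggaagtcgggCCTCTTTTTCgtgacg
Rpl38: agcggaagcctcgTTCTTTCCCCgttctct
Rpl39: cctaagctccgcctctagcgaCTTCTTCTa
Rpl22l1: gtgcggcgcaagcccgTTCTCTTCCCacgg
Rps27: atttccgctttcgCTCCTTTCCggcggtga
Rps27l: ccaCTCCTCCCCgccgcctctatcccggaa
Rpl15: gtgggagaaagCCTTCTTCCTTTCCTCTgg
Rpl41: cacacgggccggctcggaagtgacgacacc
Rps2: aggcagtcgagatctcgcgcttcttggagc

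On GRCm38.p6 these windows lie at chr4:86857353-86857382 on the minus strand for Rps6 and chr11:114668565-114668594 on the plus strand for Rpl38. The window of Rpl39 is chrX:37085208-37085237 on the minus strand and that of Rpl22l1 is chr3:28805493-28805522 on the plus strand. Rps27 is at chr3:90213634-90213663 on the minus strand, Rps27l at chr9:66946071-66946100 on the plus strand, for the first of its 2 starts, and Rpl15 at chr14:18270972-18271001 on the minus strand. Rpl41 is at chr10:128549154-128549183 on the minus strand and Rps2 at chr17:24720048-24720077 on the plus strand. Each window covers the edge between the promoter and the first exon.

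Of the 82 genes, 61 had an entry in the promoter table. A run of at least 8 C or T on the sense strand was present in 27 of the 61 (44.3%), against 3760 of all 27025 genes in the table (13.9%). The longest run among the genes shown is the 17 bases of Rpl15. On the other strand such a run was found in 3 of the 61 (4.92%) and in 15.3% of all genes. The letters CTTTCC, which can lie inside such a run, were in the sense strand of 10 windows (16.4%, against 1.67% of all genes). In the 300 bases from 250 before to 50 after the start, both strands searched, CCGGAAG was in 25 of the 61 (41.0%, against 9.93%). In the same stretch AAGATGGC was in 5 (8.20%, against 3.19%) and TATAAA in 7 (11.5%, against 15.7%). CCGGAAG and AAGATGGC contain letters known from binding sites of ETS factors and of YY1, and TATAAA is the core of the TATA box. A match is a description of letters. The 27 genes with a run had a median log2 fold change, muscle over epithelium, of 0.43, and the 32 tested genes without one had 0.45.

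The libraries held between 11847432 and 54848820 counts. The sort was visible in its markers: all 8 smooth muscle markers passed the test as higher in muscle and all 8 epithelial markers as higher in epithelium. Epithelial markers reached 0.221% to 0.517% of their epithelial level in the muscle libraries (medians over the list), and smooth muscle markers 0.248% to 1.45% of their muscle level in the epithelial libraries. Smooth muscle markers summed to 3887 CPM (counts per 1000000 of a library's scaled total) in muscle 2 and to 15974 and 16842 in muscle 1 and 3, so muscle 2 stood apart. Skeletal muscle markers summed to 298 to 1165 CPM in muscle and to 5.07 to 169 CPM in epithelium, and Actc1 and Tnnt1 were called among 7 tested. Most of the muscle sums was Actc1, at 722, 204 and 948 CPM in muscle 1 to 3. Myog was high mainly in muscle 1 (245, 1.20 and 17.3 CPM). Of the 7, 6 lay higher in muscle by sign, and Ttn lay higher in epithelium, with 130 CPM in epithelium 2. Immune markers summed to 3.19 to 49.6 CPM in muscle and 4.31 to 42.9 CPM in epithelium, lowest in the library numbered 1 of each population. Of 16 genes of the response to tissue dissociation, Egr1, Ier2 and Nr4a1 passed the test as higher in epithelium and none as higher in muscle. By sign, 9 lay higher in epithelium and 7 in muscle. Among the latter, not called, were Hspa1a (log2 fold change 2.46 ± 0.79, SE) and Hspa1b (2.61 ± 0.86). Hspa1a had 1622, 205 and 248 CPM in muscle 1 to 3. The list of 16 summed to 10512 to 27479 CPM in muscle and 28208 to 35287 CPM in epithelium. The part of these differences in the results below was not tested.

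The ribosomal protein genes together took shares of the counts that overlapped between the populations. Their summed share was 1.41%, 1.86% and 1.85% of library counts in muscle 1 to 3 and 1.81%, 1.44% and 1.57% in epithelium 1 to 3. The highest and the lowest of the 6 shares were both in muscle, and the groups overlapped. The means were 1.71% ± 0.259 in muscle and 1.61% ± 0.186 in epithelium (SD, n = 3 each), and the difference of 0.0975 percentage points had an exact permutation p of 0.6, two-sided, where 3 against 3 cannot go below 0.1. In bulk samples like these, fewer cells of a type and less RNA per cell cannot be told apart. The balance of the subunits differed little between libraries. Counts of large subunit genes, without the P stalk genes, were 1.24, 1.27 and 1.28 times those of small subunit genes in muscle and 1.25, 1.30 and 1.37 times in epithelium (means 1.26 ± 0.0212 and 1.31 ± 0.0605, exact permutation p = 0.3). The lowest ratio of each population was in its library 1, where the large subunit gene Rpl29 was low. The part of Rpl29 in these ratios was not tested.

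**Figure D1:**
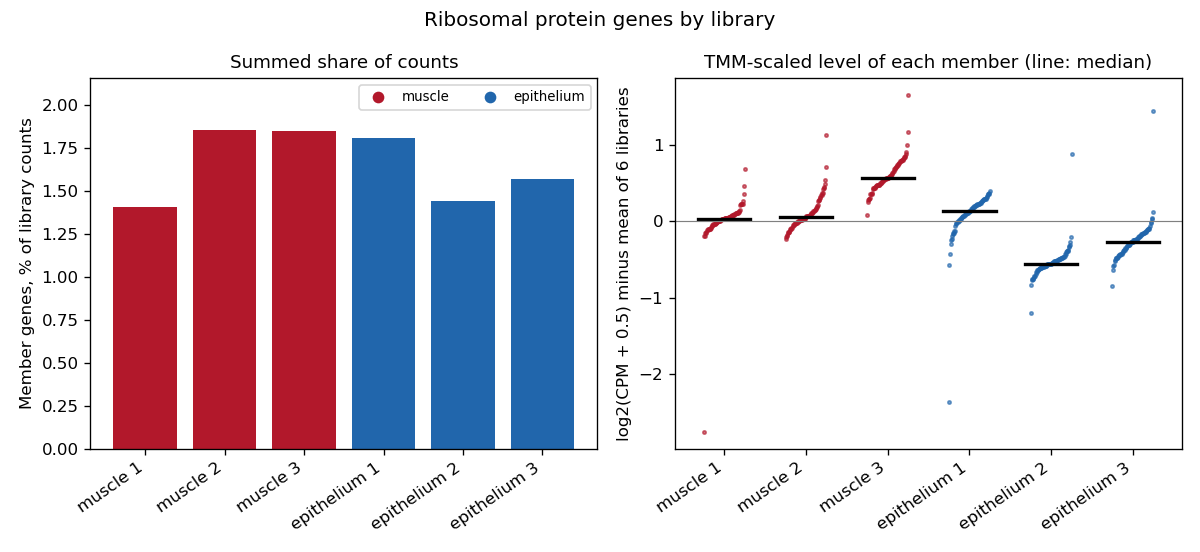
The left panel shows the percent of each library's counts in ribosomal protein genes, which lay between 1.41% and 1.86%, and the right panel the log2 of CPM plus 0.5 of each tested gene minus its mean over the 6 libraries (points, a line at the library's median). Muscle 3 is the highest library and epithelium 2 the lowest for most genes, and the single points far below the rest in muscle 1 and epithelium 1 are Rpl29.

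With TMM scaling (the trimmed mean of M-values), which sets the libraries level over most genes, the summed level was 16775, 16398 and 23115 CPM in muscle and 18454, 11438 and 14870 CPM in epithelium. Only muscle 3 was above all epithelial libraries. The means of 18763 ± 3774 and 14921 ± 3508 CPM (SD, n = 3 each) gave an exact permutation p of 0.4. By subunit, large subunit genes summed to 9832 CPM on average in muscle and 7922 CPM in epithelium, small subunit genes to 7787 and 6080 CPM, and the P stalk genes to 1144 and 919 CPM.

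Gene by gene, 80 of the 82 could be tested, and none passed the test in either direction. Here a gene is called when its p from the quasi-likelihood test of edgeR, adjusted by Benjamini-Hochberg over all 19375 tested genes, is under 0.05. Of all tested genes 10.7% were called, 6.58% as higher in muscle and 4.11% as higher in epithelium. At an unadjusted p under 0.05, 19 ribosomal protein genes lay higher in muscle and 0 higher in epithelium. Of all 19375 tested genes, 13.5% lay higher in muscle and 1584 genes higher in epithelium. Among genes whose log2 CPM averaged 6 or more, 11 of 59 ribosomal protein genes lay higher in muscle, beside 1019 of all 4123. Limma-voom called 1 ribosomal protein gene higher in muscle (8.21% of all genes) and DESeq2 called 5 (10.1% of all genes). Both called 0 of the set higher in epithelium. The lowest adjusted p by edgeR was 0.055, for Rpl39. The 95% interval of 53 of the 80 genes reached a log2 fold change of 1, so a doubling was within the error for most of them.

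The fold changes themselves lay to one side. Of the 80 tested genes, 78 had a positive log2 fold change, muscle over epithelium, beside 45.5% of all tested genes. Their median was 0.43 (quartiles 0.30 and 0.64), with a median standard error (SE) of 0.28, and the median of all tested genes was -0.10. With relative log expression (RLE) size factors in place of TMM the medians were 0.32 and -0.20, and with library totals alone 0.19 and -0.33. The number of positive genes went from 78 to 76 and to 67. A scaling shifts all genes about alike, so the distance between the median of these genes and that of all genes stayed near its 0.53 under TMM by construction. That distance was 0.31 without both libraries numbered 2, and with 1 library left out it ranged from 0.18 (without epithelium 2) to 0.81 (without epithelium 1). Well-expressed genes also lay on the muscle side: of the 4123 genes whose log2 CPM averaged 6 or more, 66.9% were positive with a median of 0.22, and of the 59 ribosomal protein genes above that level 58 were positive with a median of 0.39. Without epithelium 2 the median of the tested ribosomal protein genes was 0.22, and without epithelium 1 it was 0.65. Without muscle 3 it was 0.23.

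**Figure D2:**
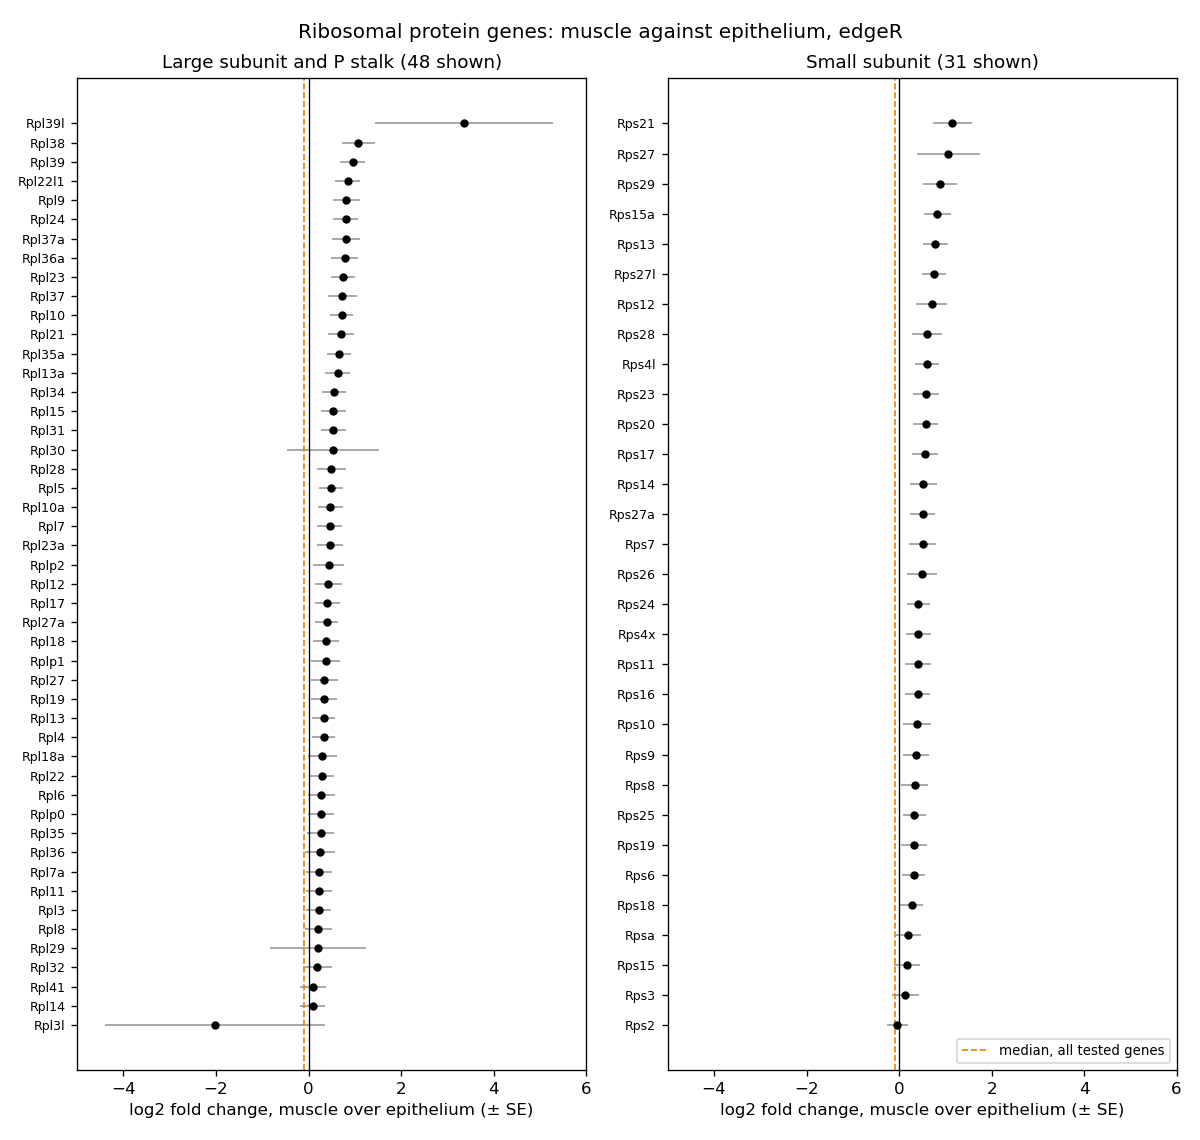
Log2 fold changes of muscle over epithelium from edgeR (points) with their SE (lines) for the 48 tested genes of the large subunit and P stalk and those of the small subunit, of which 1 is not shown. All but Rpl3l and Rps2 are above 0 under TMM scaling, where none passed the test, and 67 of 80 are above 0 with library totals alone.

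In 20 genes every muscle library was above every epithelial library, and in 0 genes the reverse held. Of all tested genes 16.4% had no overlap with muscle higher and 10.5% with epithelium higher. The 20 were 17 of the 45 tested large subunit genes (Rpl5, Rpl9, Rpl10, Rpl13a, Rpl15, Rpl21, Rpl22l1, Rpl23, Rpl24, Rpl31, Rpl34, Rpl35a, Rpl36a, Rpl37a, Rpl38, Rpl39 and Rpl39l) and 3 of the 32 small subunit genes (Rps13, Rps15a and Rps27l). Among the 59 that averaged a log2 CPM of 6 or more there were 10 (16.9%), where 26.8% of all genes at that level had no overlap with muscle higher. The subunits had like medians, 0.45 for the large, 0.46 for the small and 0.37 for the P stalk.

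Rpl39 had the lowest p of the set. It encodes a small protein in the wall of the exit tunnel through which the new chain leaves the large subunit. Its level was 186, 244 and 329 CPM in muscle 1 to 3 and 121, 127 and 144 CPM in epithelium 1 to 3. The groups did not overlap, and the 3 epithelial libraries were close to each other. The log2 fold change was 0.95 ± 0.27 (SE, 95% interval 0.35 to 1.56, edgeR adjusted p = 0.055). DESeq2 gave an adjusted p of 0.0040 and limma-voom 0.041. With the header identifier as a term edgeR gave an adjusted p of 0.030. That term sets the libraries numbered 2 apart from all others, from identifiers read as dates. With the replicate number as a block edgeR gave an adjusted p of 0.019, a fit that called 4 genes of the set higher in muscle (8.27% of all genes). Its X-linked position (chromosome X, 37082520 to 37085402, minus strand) is shared by 4 tested genes, whose median was 0.75 beside 0.42 for the 76 others, a grouping chosen after the values were seen. Its testis-enriched paralogue Rpl39l was near the floor, with 22, 29 and 51 raw counts in muscle and 3, 2 and 4 in epithelium. That is 0.84, 1.45 and 1.29 CPM against 0.06, 0.13 and 0.15 CPM, without overlap. The fitted log2 fold change of 3.37 ± 1.92 (adjusted p = 0.40) rests on these few epithelial counts.

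Rpl22l1, which can take the place of its paralogue Rpl22 in the large subunit, measured 75.6, 104 and 135 CPM in muscle and 57.4, 56.3 and 62.1 CPM in epithelium. All muscle libraries were higher, and the epithelial ones again lay close together. The log2 fold change was 0.84 ± 0.26 (95% interval 0.25 to 1.44, edgeR adjusted p = 0.080), and DESeq2 gave an adjusted p of 0.029. With the replicate number as a block the adjusted p was 0.046, and with the header identifier as a term 0.049. Rpl22 itself measured 259, 202 and 289 CPM in muscle and 254, 156 and 205 CPM in epithelium, with overlap (log2 fold change 0.28 ± 0.27, edgeR adjusted p = 0.74). The difference between the paralogues was not tested. In coding sequence, 82.7% of the 50-base stretches of Rpl22l1 recur in an annotated pseudogene, beside 31.0% for Rpl22.

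The p53-responsive paralogue Rps27l measured 72.4, 96.6 and 125 CPM in muscle and 63.7, 51.5 and 59.2 CPM in epithelium. The groups did not overlap, with muscle 1 nearest to the epithelial libraries, and the log2 fold change was 0.75 ± 0.26 (edgeR adjusted p = 0.12). Rps27, the common form, was far lower in this table. It had 7.72, 4.74 and 8.59 CPM in muscle and 5.09, 1.74 and 3.19 CPM in epithelium, with overlap (log2 fold change 1.07 ± 0.69, adjusted p = 0.49). All of its coding 50-base stretches recur in some other annotated gene, and 48.3% of those of Rps27l.

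Rpl38, whose loss in mice alters the skeletal pattern and the translation of Hox messages, measured 12.3, 22.6 and 26.0 CPM in muscle and 11.4, 8.42 and 9.01 CPM in epithelium. There was no overlap, but muscle 1 exceeded epithelium 1 by little. The log2 fold change was 1.08 ± 0.36 (95% interval 0.27 to 1.89, edgeR adjusted p = 0.10). Rps21, a small protein of the small subunit, measured 12.2, 19.2 and 29.9 CPM in muscle and 13.1, 7.49 and 7.02 CPM in epithelium. Here epithelium 1 was above muscle 1 and the groups overlapped (log2 fold change 1.15 ± 0.42, adjusted p = 0.14). Rps29, a small zinc-binding protein of the small subunit, had 69.3, 112 and 159 CPM in muscle and 86.1, 46.8 and 50.9 CPM in epithelium, likewise with epithelium 1 above muscle 1 (0.89 ± 0.36, adjusted p = 0.19). In all, 4 tested genes (Rpl38, Rps21, Rps27 and Rpl39l) reached 1 on the log2 scale and 33 reached 0.5.

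Rpl10, a late-joining protein near the peptidyl transferase centre, measured 141, 131 and 198 CPM in muscle and 108, 91.8 and 86.5 CPM in epithelium, without overlap. Its log2 fold change was 0.72 ± 0.25 (95% interval 0.15 to 1.28, edgeR adjusted p = 0.12), with 0.026 by DESeq2 and 0.043 with the header identifier as a term. All of its coding 50-base stretches recur in pseudogenes. Rpl10l, its autosomal relative of the testis, had 1, 2 and 3 raw counts in muscle and 0, 0 and 18 in epithelium and was not tested.

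Rps4x and Rps4l were both well detected. Rps4x had 233, 229 and 335 CPM in muscle and 232, 163 and 202 CPM in epithelium, with overlap (0.42 ± 0.26, edgeR adjusted p = 0.46). Rps4l had 389, 272 and 390 CPM in muscle and 276, 185 and 233 CPM in epithelium. For Rps4l only epithelium 1, the highest epithelial library, lay above a muscle library, muscle 2. The log2 fold change of Rps4l was 0.60 ± 0.26 (adjusted p = 0.23), with an adjusted p of 0.046 by DESeq2 of 0.034 with the replicate number as a block and of 0.017 with the header identifier as a term. Of the 740 stretches of 50 bases in Rps4l, 17.97% recur in another gene, beside 90.1% for the coding sequence of Rps4x.

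Rpl3 measured 213, 161 and 211 CPM in muscle and 222, 144 and 136 CPM in epithelium, a log2 fold change of 0.22 ± 0.27 (edgeR adjusted p = 0.84). It helps to shape the peptidyl transferase centre. Rpl3l, its paralogue of heart and skeletal muscle, had 0, 10 and 2 raw counts in the muscle libraries and 2, 18 and 27 in the epithelial ones. The lowest fold change of the set belongs to Rpl3l, -2.03 ± 2.38, with an SE larger than the value.

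**Figure D3:**
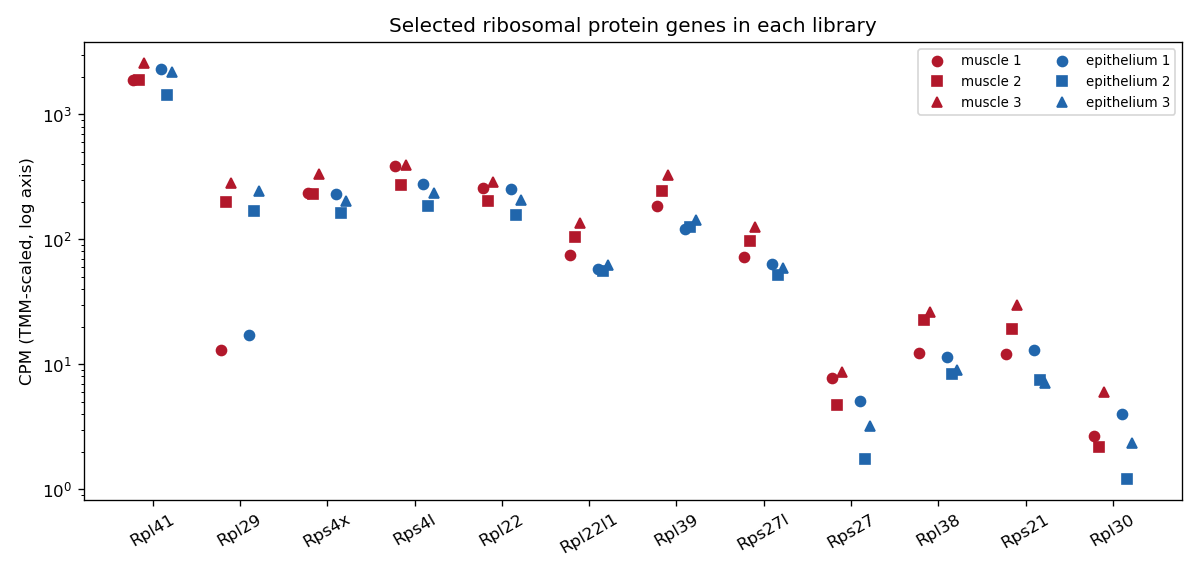
TMM-scaled CPM on a log axis of 12 ribosomal protein genes in each library, with red symbols for muscle and blue for epithelium and 1 symbol shape for each replicate number. Rpl39, Rpl22l1, Rps27l and Rpl38 show no overlap between populations, and Rpl29 is near 13 to 17 CPM in both libraries numbered 1 and at 167 to 284 CPM in the other 4.

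Rpl5 and Rpl11 bind Mdm2 together with 5S RNA when ribosome assembly is disturbed. Rpl5 had 112.5, 105.6 and 153 CPM in muscle and 105.4, 82.9 and 76.7 CPM in epithelium, where muscle 2 was above epithelium 1 by less than 1 CPM (0.49 ± 0.25, edgeR adjusted p = 0.33). Rpl11 had 38.2, 40.2 and 57.2 CPM in muscle and 48.9, 28.5 and 38.3 CPM in epithelium, with overlap (0.23 ± 0.28, adjusted p = 0.84). The value of Rpl11 turned to -0.0141 with library totals alone and to -0.0122 without epithelium 2. The difference between Rpl5 and Rpl11 was not tested.

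Rps6, the substrate of S6 kinase, measured 190, 182 and 250 CPM in muscle and 193, 140 and 167 CPM in epithelium (0.31 ± 0.25, edgeR adjusted p = 0.63). Rps19, the gene most often altered in Diamond-Blackfan anaemia, had 240, 230 and 321 CPM in muscle and 267, 158 and 208 CPM in epithelium (0.32 ± 0.27, adjusted p = 0.68). Both overlapped. Rpsa, which is also known as the laminin receptor, had 409, 368 and 463 CPM in muscle and 466, 271 and 341 CPM in epithelium, so that its highest library was epithelium 1 (0.20 ± 0.27, adjusted p = 0.85). With library totals alone Rpsa came to -0.04 and without epithelium 2 to -0.03. Rps2 was the only gene besides Rpl3l on the epithelial side, at 215, 221 and 240 CPM in muscle and 273, 197 and 224 CPM in epithelium (-0.04 ± 0.23, adjusted p = 0.97).

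The P stalk genes shared 1 pattern over the libraries. Rplp0, its base, had 672, 634 and 871 CPM in muscle and 765, 440 and 591 CPM in epithelium (0.28 ± 0.28, edgeR adjusted p = 0.77). Rplp1 had 290, 289 and 413 CPM in muscle and 350, 171 and 247 CPM in epithelium (0.37 ± 0.31, adjusted p = 0.68). Rplp2 had 65.4, 74.8 and 123 CPM in muscle and 93.1, 47.9 and 53.9 CPM in epithelium (0.43 ± 0.34, adjusted p = 0.63). In each, muscle 3 was the highest and epithelium 2 the lowest library, and epithelium 1 was above muscle 1 and 2.

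Over the whole set, muscle 3 was the highest of the 6 libraries for 74 of the 80 tested genes and epithelium 2 the lowest for 70. Within muscle, 79 genes were above their group mean in library 3, beside 7 in library 1 and 11 in library 2. Within epithelium, 74 genes were above it in library 1, 3 in library 2 and 33 in library 3. After the group means were taken out, 56 of the 77 genes that averaged a log2 CPM of 2 or more correlated above 0.9 with the median of the set over the 6 libraries, as a description (median Pearson r 0.957). The lowest were Rpl29 at -0.09, Rpl39 at 0.49 and Rpl22l1 at 0.57. Outside the set, and among 4064 genes averaging a log2 CPM of 6 or more (median r 0.58), the genes most like the median were Atp5h (r 0.9997), Siva1 (0.996), Tyro3 (0.996), C330021F23Rik (0.995) and Fau (0.995). Fau encodes ribosomal protein S30 fused to a ubiquitin-like protein. These correlations share the 6 libraries and their scaling.

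Rpl29 was the exception, set apart by both libraries numbered 1. This protein of the large subunit surface is also known as a heparin-binding protein. It measured 13.0, 199 and 284 CPM in muscle and 17.3, 167 and 246 CPM in epithelium. Both libraries numbered 1 were low, the other 4 were high, and the populations overlapped fully, with 21.8-fold between the highest and the lowest library. The within-group SD was 2.23 on the log2 scale, beside 0.557 for Rps21, the next among the 77 genes that averaged 2 or more in log2 CPM (0.752 for Rpl3l and 0.690 for Rpl30, which lie below that level). The log2 fold change of 0.21 ± 1.03 (edgeR adjusted p = 0.97) went to -0.43 without muscle 3 and to 0.77 without muscle 1. Among all 19375 tested genes Rpl29 ranked 1 in the gap that set both libraries numbered 1 apart from the other 4, a gap of 3.24 on the log2 scale or 9.44-fold, a comparison chosen after its values were seen. The next in that order were Vwf, at 1.98 CPM in muscle 1 and 0.39 in epithelium 1 and at 14.8 to 24.9 in the other 4, then C1qb, Tie1, Tyrobp and Pecam1, genes of endothelial and immune cells, also lower in libraries 1. In the file header both libraries numbered 1 carry the same identifier, both libraries numbered 2 share another, and those numbered 3 carry 2 different ones. In the annotation Rpl29 lies on chromosome 9, 106429454 to 106431568 on the plus strand (GRCm38), and 90.3% of its coding 50-base stretches recur among 81 annotated pseudogenes.

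Levels between genes were compared per kilobase of coding length, as means over the 6 libraries. Rpl41, which encodes one of the shortest known proteins, was the highest at 27234 CPM per kb, a value set in part by its 75 coding bases. In CPM it had 1869, 1894 and 2569 in muscle and 2324, 1423 and 2176 in epithelium (0.10 ± 0.28, edgeR adjusted p = 0.94). Rpl41 changed sign under RLE scaling (-0.01) and with library totals alone (-0.14). Rpl39 reached 1252 CPM per kb.

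The lowest per kb were Rpl26 at 0.077, Rpl10l at 0.231 and Rpl3l at 0.383. Rpl26, a protein of the large subunit that every ribosome carries, was nearly absent from the table with 0, 2 and 4 raw counts in muscle and 0 in all 3 epithelial libraries, below the filter on low counts. Zero counts there allow up to 0.056 CPM in epithelium 1, 0.200 CPM in epithelium 2 and 0.113 CPM in epithelium 3 (3 counts of the scaled total, counting error only). Rpl30, another core protein, had 2.66, 2.20 and 5.99 CPM in muscle and 4.01, 1.20 and 2.33 CPM in epithelium (0.52 ± 1.00, edgeR adjusted p = 0.91), or 8.89 CPM per kb. In Rpl26 87.3% and in Rpl30 83.1% of the coding 50-base stretches recur in annotated pseudogenes.

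Such sharing was the rule. A stretch of 50 bases was shared with an annotated pseudogene in 79 of the 82 genes, and 28 had all of their coding stretches there. Rpl3l and Rpl39l were among the 3 without any. The median over the 81 genes with a coding length was 88.9%. The 10 genes lowest per kb had a median of 77.7% and the 10 highest 49.6%, and over all 81 the level per kb and the shared percent had a Spearman rho of -0.33 and a Pearson r of 0.09, a description across genes. Over the 76 that averaged 2 or more in log2 CPM, rho was -0.52 and r -0.37. Reads from a gene and its copies cannot be told apart over such stretches, and how the counting placed them is not given in the sources used here, so levels of single genes are uncertain.

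**Figure D4:**
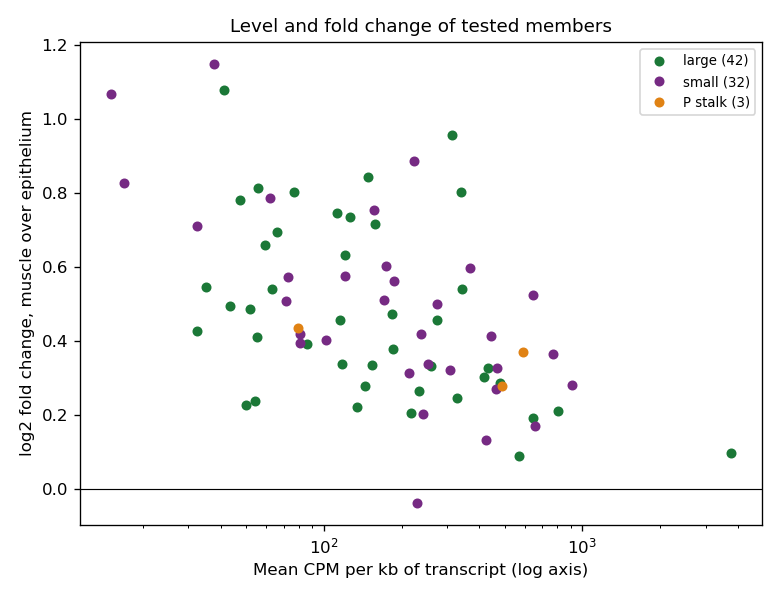
Log2 fold change of muscle over epithelium against the mean CPM per kb of transcript (log axis) for the 77 tested genes averaging a log2 CPM of 2 or more, coloured by subunit. Fold changes are larger toward the left, and the medians of the lower and the upper 38 and 39 genes are 0.56 and 0.33.

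The fold change varied with the level within the set. Over 77 genes, Spearman's rho between the log2 fold change and the log2 mean CPM was -0.60 (Pearson r -0.64), and with CPM per kb of transcript it was -0.54 (r -0.55). Both quantities come from the same 6 libraries. The 38 genes lower in CPM per kb of transcript had a median log2 fold change of 0.56 and the 39 higher ones 0.33. Split by GC content of the transcript, the medians were 0.53 in the 38 genes of lower GC and 0.34 in the 39 of higher GC (rho -0.40). By transcript length they were 0.52 in the 38 genes of up to 761 bases and 0.40 in the 39 of at least 774 bases (rho -0.31, r -0.06).

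Genes of the wider pathway were taken from fixed lists. Of 5 tested genes of the cytosolic ribosome that the symbol rule misses, 0 were called in either direction, with a median log2 fold change of 0.41. Among them were Fau (0.43 ± 0.32), Rps3a1 (0.41 ± 0.26), Rpl36al (0.43 ± 0.25) and Rpl7l1 (0.01 ± 0.29). At an unadjusted p under 0.05 there were 0. Of 11 elongation factors 0 were called and 1 had an unadjusted p under 0.05, with a median of 0.39. The main ones were Eef1a1, which brings transfer RNA to the ribosome, at 3038 ± 509 CPM in muscle and 2314 ± 467 CPM in epithelium (0.39 ± 0.26, edgeR adjusted p = 0.52), and Eef2, which moves it along, at 0.45 ± 0.31 (adjusted p = 0.54). Both lists sat near the ribosomal protein genes, and the same scaling touches all of them.

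Among 41 initiation factors, 1 was called in each direction and the median was 0.23. Eif4ebp1, the mTOR target that holds back cap-dependent initiation, was higher in muscle. It had 133, 118 and 156 CPM in muscle and 72.0, 35.8 and 58.8 CPM in epithelium (1.28 ± 0.30, edgeR adjusted p = 0.024). Eif2b5, a subunit of the exchange factor of eIF2, was lower in muscle, with 25.1, 28.8 and 66.2 CPM against 196.7, 120.03 and 121.7 CPM (-1.87 ± 0.41, adjusted p = 0.020).

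The 73 tested genes of ribosome biogenesis had a median log2 fold change of -0.05, with 0 called higher in muscle and 2 higher in epithelium. These were Noc2l (-2.24 ± 0.38, edgeR adjusted p = 0.0058), named for its yeast relative in pre-60S transport, and Rrs1 (-2.59 ± 0.49, adjusted p = 0.010), which takes part in large subunit assembly. Rrs1 had 9.73, 9.49 and 25.2 CPM in muscle and 132, 86.8 and 49.5 CPM in epithelium. The summed level of the list was 6423 CPM on average in muscle and 6622 CPM in epithelium.

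In the list of chaperones and regulators of ribosomal protein genes (28 tested, median 0.17), the Myc family split. Myc, a transcription factor that drives ribosome production, had 152, 140 and 157 CPM in muscle and 47.8, 37.8 and 25.5 CPM in epithelium. Mycn, its relative, had 15.8, 12.5 and 9.93 CPM in muscle and 337, 98.8 and 201 CPM in epithelium. Neither overlapped between populations. Myc was higher in muscle by 2.01 ± 0.28 on the log2 scale (edgeR adjusted p = 0.0023) and Mycn was higher in epithelium (-4.06 ± 0.47, adjusted p = 0.0010). They were the only calls of that list.

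The list of snoRNA hosts and noncoding TOP genes, with 10 genes, had the highest median of these lists, 0.68. It also holds Rmrp (1.31 ± 1.02) and Rpph1 (1.09 ± 0.43), the RNAs of RNase MRP and RNase P, which are neither. Their fold changes were the largest of the list. The list summed to 415, 394 and 376 CPM in muscle and 289, 221 and 223 CPM in epithelium, without overlap. Here muscle 3 was not the highest library. Snhg3 passed the test (1.00 ± 0.27, edgeR adjusted p = 0.048) and none passed as higher in epithelium. Gas5, whose messages carry a TOP motif, had 175, 148 and 130 CPM in muscle and 100.2, 63.2 and 78.6 CPM in epithelium (0.90 ± 0.26, adjusted p = 0.059).

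The mitochondrial ribosome, which is built from a separate set of 76 tested genes, had a median log2 fold change of 0.24, with 1 gene called in each direction, Mrpl20 (1.09 ± 0.27, edgeR adjusted p = 0.031) and Mrps30 (-2.13 ± 0.43, adjusted p = 0.014). Of the 4 tested genes whose symbols mark ribosomal protein pseudogenes 0 were called and 1 had an unadjusted p under 0.05, with a median of 0.45. Of 20 cell division genes 0 were called and 0 had an unadjusted p under 0.05 in either direction, with a median of -0.24.

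**Figure D5:**
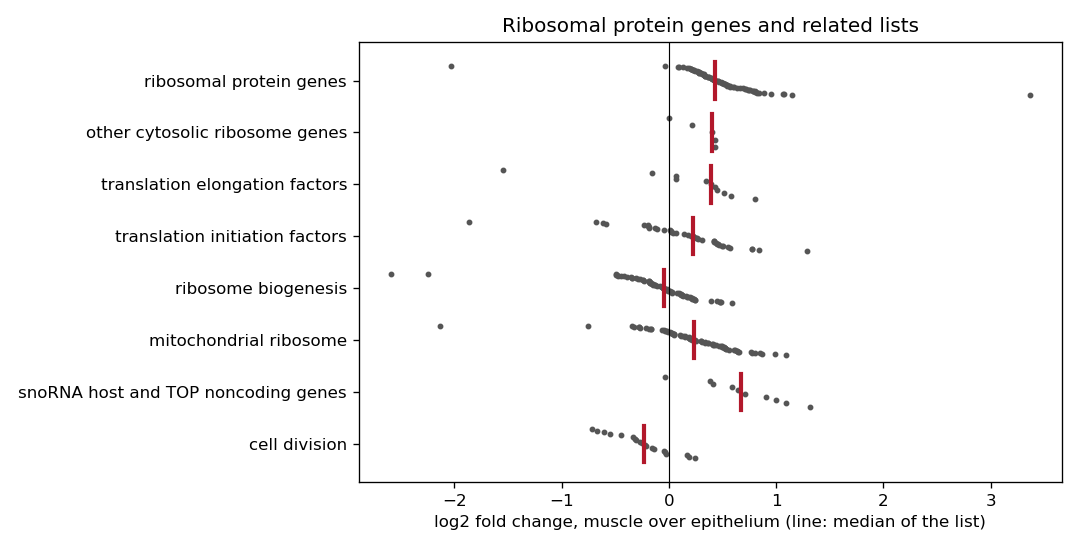
Log2 fold changes of muscle over epithelium (points, 1 per tested gene) for the ribosomal protein genes and 7 related lists, with a line at each list's median. The medians are 0.43 for ribosomal protein genes, -0.05 for ribosome biogenesis and 0.24 for the mitochondrial ribosome. The list of snoRNA hosts and noncoding TOP genes, which also holds Rmrp and Rpph1, has a median of 0.68. All are under TMM scaling.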

How the data were processed

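Per the labels' protocols, tracheal tissue was dissociated with TrypLE, stained for Epcam and sorted, Trizol was used for RNA, the SMART-Seq v4 kit for cDNA and Nextera XT for libraries. The submitters' processing notes name Trim Galore, Bowtie2, Cufflinks, DESeq and the build mm10, without roles or versions. The counting program and annotation are not given in the sources used here. The authors deposited whole-number counts per gene symbol, which were used as deposited. The libraries carry no molecular identifiers, so counts include PCR copies. Of counts from 1 to 19, 73.8% to 79.6% were even, and of counts of 100 or more 49.4% to 50.6%.

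Counts were tested in R 4.3.3 with edgeR 4.0.16 (robust quasi-likelihood fit, two-sided, TMM, filterByExpr by group, no covariate, all 6 libraries), with Benjamini-Hochberg adjustment over 19375 genes and a threshold of 0.05. Groups follow the titles. Alternatives used limma 3.58.1 (voom), DESeq2 1.42.0, other scalings and filters, header identifiers and left-out libraries. For these fits the header identifiers were read as dates, which the header does not state. The libraries numbered 2 formed the earlier group and all others, though their identifiers differ, the later group. CPM uses TMM-scaled totals. SE were derived from the test statistic and intervals are 95%. Single values per library were tested by exact permutation. The scripts were tested on simulated data.

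Lengths, positions and shared 50-base stretches came from GENCODE vM21 (GRCm38), 1 transcript per gene, and start sequences from RefSeq (GRCm38.p6). Genes named were members called, the 6 with the largest within-group SD, paralogue pairs, members with textbook roles, the 3 highest and 3 lowest per kb of coding length, up to 3 genes called per direction in each related list and the 5 genes most like the member median. The genes and lists were chosen with earlier results of these data known. Members named beyond this rule were chosen after their values were seen. Some genes that the rule chose are not reported here.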

Additional observations from a re-analysis of the deposited data

How the results depend on the processing

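Ribosomal protein genes called higher in muscle by edgeR numbered 0 in all 6 fits that left out 1 library and under each other scaling and filter, but 4 with the replicate number as a block (8.27% of all genes), 5 with the header identifier as a term (10.6%), 5 with DESeq2 and 1 with limma-voom. They were drawn from Rpl39, Rpl22l1, Rps4l, Rpl10, Rpl15 and Rpl23. None was called higher in epithelium. Genes called over the whole table numbered 2071, 3178 with the header identifier, 3531 with DESeq2, 983 at a threshold of 0.01 and 1169 (without epithelium 3) to 2573 with 1 library left out, with 1323 without muscle 1. Of the called genes 61.5% were higher in muscle, and 42.0% with library totals alone. The 19 ribosomal protein genes at an unadjusted p under 0.05 became 1 without muscle 3, 3 without epithelium 2 and 2 without epithelium 3. They became 6 over the later header identifier and 10 with library totals. Higher counts came with the header identifier as a term (33), without epithelium 1 (26) and without muscle 2 (23). The share of all tested genes under that limit was counted only in the main fit (13.5% higher in muscle). These counts therefore do not show whether the ribosomal protein genes moved apart from the whole table. The median log2 fold change of the tested ribosomal protein genes kept its sign, from 0.19 with library totals to 0.65 without epithelium 1. With 1 library left out it was 0.22 to 0.65. The positive genes numbered 68 to 79 with 1 library left out. The difference in summed share was 0.0158 to 0.247 with 1 library left out. It was -0.0600 over the 4 libraries whose header identifiers were read as the later date, which leaves out both libraries numbered 2 (exact permutation p = 1).

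Of single genes, Rpl29 turned to -0.0722, Rpl3 to -0.0345, Rpsa to -0.0356 and Rpl11 to -0.0141 with library totals. With 1 library left out Rpl29 went from -0.43 (without muscle 3; -0.30 without epithelium 1) to 0.768, Rpl3 from -0.0373 (without epithelium 3) to 0.502, and, lowest without epithelium 2, Rpsa from -0.0306 to 0.453 and Rpl11 from -0.0122 to 0.454. Rpl41 was -0.00676 with RLE, -0.00680 with DESeq2, -0.14 with library totals, -0.0534 with a filter at an average log2 CPM of 2, -0.0945 over the later identifier, -0.0614 without muscle 3 and -0.15 without epithelium 2 (up to 0.25 without epithelium 1). Their causes were not tested. Libraries with 1 replicate number deviated from their group means with r of 0.57, 0.66 and -0.42 over all genes for the numbers 1 to 3, and with 0.80, 0.76 and 0.62 over 77 ribosomal protein genes. Over the 4123 genes that averaged a log2 CPM of 6 or more, r was 0.18, 0.16 and -0.18. The numbers were not taken as pairs, since over all genes the number 3 was below 0 and the labels do not say what the numbers stand for. The file header does link some of them. Both libraries numbered 1 share an identifier and both numbered 2 share another, while those numbered 3 differ. With the replicate number as a block, Rpl29 had a log2 fold change of 0.022 ± 0.17, beside an SE of 1.03 without it. Over the ribosomal protein genes r was above 0 for each number. These r run across genes and leave out a shift shared by all of them. The median deviation of the tested genes was -0.186 in muscle 1 and 0.368 in epithelium 1. It was -0.157 and -0.308 in the libraries numbered 2 and 0.350 and -0.0257 in those numbered 3. Rpl29, with a within-group SD of 2.23, is 1 of the 77 genes, and its part in these r was not tested. Rpl3l, Rpl10l, Rpl26 and Rpl39l held at most 51 counts in any library, so their levels rest on few counts. The cause of these low counts was not tested.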
